A study of Mus musculus with 47 samples.

Results

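Suv39h1ER cultures are mouse B-cell lymphoma cultures that lack Suv39h1 and carry a Suv39h1ER fusion, here compared after 5 days of Adriamycin (ADR) alone and in the untreated, or native, state. The members were chosen by their genotype label, Suv39h1- plus Suv39h1ER, and by treatment, and were paired by the culture name in the title (SuvER-4146, SuvER-4936 and SuvER-5043). They are 6 of the 47 arrays of the study, 3 native and 3 ADR. All cultures came from primary lymphoma cells of lymph nodes of Eµ-myc transgenic mice, in which Myc is driven in the B-cell lineage. A retrovirus (MSCVpuro) added Bcl2, puromycin selection lasted 48 h, and the feeder layer was NIH 3T3, a mouse fibroblast line, irradiated with 20 Gy. ADR, also known as doxorubicin, was given at 0.05 µg/ml, and 3 µg of total RNA was labelled for the arrays. An ER fusion is held inactive until 4-hydroxytamoxifen (4OHT) is added, so the fusion was not induced in these 6 arrays. The labels call both the native and the ADR cells non-senescent. The labels name 3 cultures, counted as n = 3, and 3 further arrays of the same cultures received ADR with 4OHT. For comparison, 5 Suv39h1- lymphomas and 14 lymphomas with wild-type (WT) Suv39h1 were each measured native and after ADR; the labels call the Suv39h1- cells non-senescent and the WT cells senescent after ADR. The level of Suv39h1 itself was not analysed here.

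Suv39h1 is a histone methyltransferase that trimethylates lysine 9 of histone H3, a mark of compact, silent chromatin. In Myc-driven lymphoma cells shielded from apoptosis by Bcl2, DNA damage by a drug such as ADR can lead to senescence, a lasting arrest in which genes of the cell cycle are silenced while many secreted factors are made. Loss of Suv39h1 is known to impair that arrest in this lymphoma model.

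The values are RMA log2 levels of 1 probe set for each of 18193 genes. Medians of the 6 arrays over all probe sets lay between 4.34 and 4.37. The number of cultures limits the precision. B-cell genes were present throughout: none of the 24 measured genes of a B-cell list was below a log2 level of 5 in all 6 arrays, and their mean level was 8.33 to 8.93 per array. Probe sets for RNA quality moved with the treatment. The 3′ minus 5′ difference of Actb went from 0.91 to 0.611 in SuvER-4146, from 1.39 to 0.471 in SuvER-4936 and from 1.04 to 0.791 in SuvER-5043. The 18S ribosomal RNA control went from 8.82 to 8.47, from 10.06 to 8.28 and from 9.81 to 8.26 in the same order. The part of RNA quality in the results below was not tested. No label gives a batch.

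The native and ADR arrays of SuvER-4936 did not match each other. Between native and ADR, SuvER-4936 went from 5.86 to 11.5 for Xist, the RNA that silences an X chromosome in female cells. The light-chain gene Iglv1 went from 10.82 to 3.03, the light-chain gene Igkv8-30 from 6.95 to 12.57 and the heavy-chain gene Ighv14-2 from 4.88 to 9.53. A lymphoma is clonal and keeps its immunoglobulin genes, and in the other 2 cultures each of these 4 genes stayed within 0.8 of its native level. Over 200 genes that mark single lymphomas, the native and ADR arrays of SuvER-4936 correlated at -0.42, against 0.54 in SuvER-4146 and 0.87 in SuvER-5043. For the 2 arrays of each WT or Suv39h1- lymphoma the lowest value was 0.535 (median 0.757). The 200 genes were chosen in those same lymphomas to vary between lymphomas and little within 1, which raises these reference values. Arrays of different lymphomas correlated at a median of -0.065 but at 0.89 at the highest, so a high correlation alone does not identify a lymphoma. The SuvER-4936 ADR array correlated at 0.61 and 0.69 with the native and ADR arrays of a Suv39h1- lymphoma that carries the same number. The native array correlated at -0.04 with that lymphoma's native array and at 0.79 with native SuvER-5043. With the ADR with 4OHT array of SuvER-4936, the native array of this culture correlated at 0.64 and the ADR array at -0.22. Whether SuvER-4936 and SuvER-5043 are separate lymphomas, and which SuvER-4936 array departs from its label, was not tested. Cultures were kept as labelled, and the results led with are given with and without SuvER-4936. SuvER-5043 shares its number with a WT lymphoma, with correlations of 0.15 to 0.29 between their native and ADR arrays. The ADR with 4OHT array of SuvER-4146 also stood apart from its culture, at -0.08 with the native array.

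**Figure D1:**
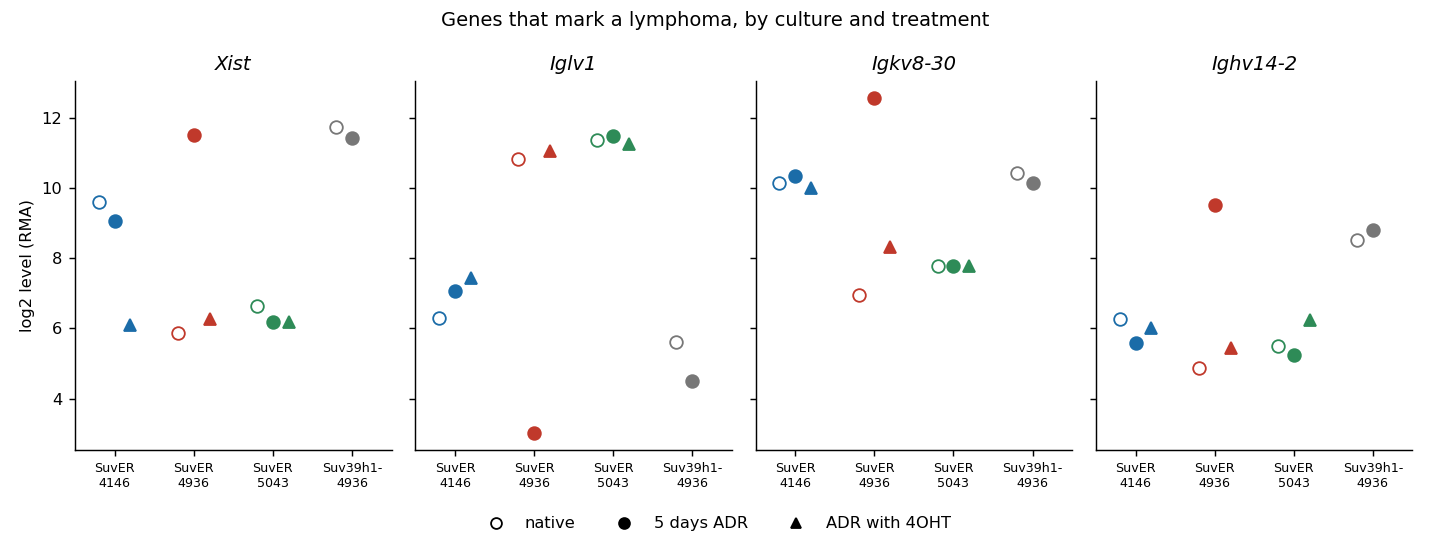
Log2 level (y axis) of 4 genes that mark a lymphoma in the 3 Suv39h1ER cultures and the Suv39h1- lymphoma 4936 (x axis), with open circles for native, filled circles for ADR and triangles for ADR with 4OHT. The filled SuvER-4936 circle, with Xist at 11.5 and Iglv1 at 3.03, lies far from the native SuvER-4936 circle, with Xist at 5.86 and Iglv1 at 10.82.

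Few genes passed the test for a change after ADR alone. At a Benjamini-Hochberg adjusted p under 0.05 in limma, with each culture as a block, 23 of 18193 genes (0.126%) were called. Of these, 16 rose (0.0879%) and 7 fell (0.0385%). Among the rising genes were the lysozyme genes Lyz1 and Lyz2, the collagenase Mmp13, galectin-3 (Lgals3), the lipid scavenger receptor Cd36 and several chemokines. Among the falling genes was the linker histone H1f4. Without SuvER-4936, 4 genes (0.022%) were called, all among the 23: Lgals3 and Lyz1 rose, and H1f4 and Gm2788 fell. Without the culture block, 2 genes were called, H1f4 and Gm2788. Without SuvER-5043 the count was 109, and without SuvER-4146 it was 44. By value alone, 43 of 18193 genes were at least 1 log2 unit higher and 10 at least 1 lower in all 3 cultures. With 3 cultures, a gene that was not called may still have changed.

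The cultures differed in how much they moved. In SuvER-4936, 2601 genes differed by more than 1 log2 unit between ADR and native, against 414 in SuvER-4146 (296 higher, 118 lower) and 173 in SuvER-5043 (115 higher, 58 lower). The SD of the change over all genes was 0.896, 0.396 and 0.326 in that order. Changes of SuvER-4146 and SuvER-5043 correlated at 0.30 across genes, which are not independent replicates. Over the marking genes, native and ADR arrays correlated at 0.87 in SuvER-5043 and at 0.54 in SuvER-4146, close to the lowest value of a WT or Suv39h1- lymphoma (0.535). In SuvER-4146 and SuvER-5043, 47 genes (0.258%) were at least 1 log2 unit higher in both and 17 (0.0934%) at least 1 lower in both. Another 2 genes passed that limit in opposite directions. Of the 47 genes, 44 were also higher in SuvER-4936, and of the 17 genes, 15 were also lower there. Of all genes, 5249 were higher in SuvER-4146 and SuvER-5043 by any amount, and 3455 of them were also higher in SuvER-4936. For lower genes these counts were 4989 and 3133.

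**Figure D2:**
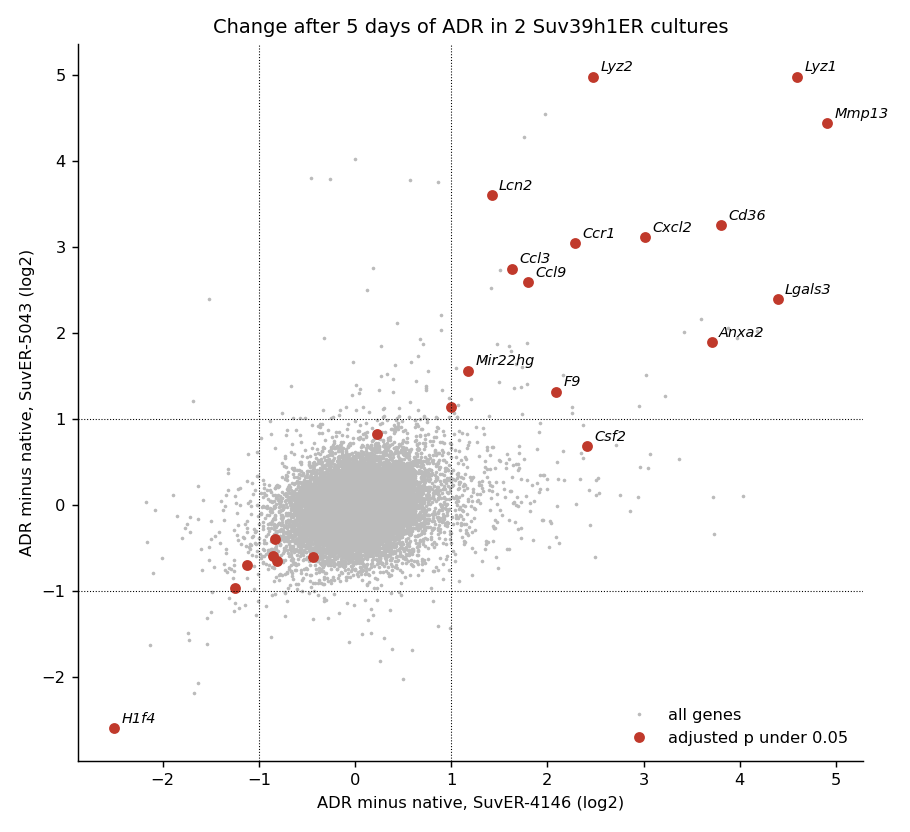
ADR minus native in SuvER-4146 (x axis) against SuvER-5043 (y axis), both in log2 units, for 18193 genes (grey) and the 23 called genes (red), with dotted lines at 1 log2 unit. Lyz1, Mmp13, Cd36 and Lgals3 lie far out at the upper right, and H1f4 lies alone at the lower left.

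Mmp13, Cd36 and Lgals3 rose in each culture by at least 2.39 log2 units. Mmp13, a collagenase of the extracellular matrix, went from 3.74, 2.50 and 4.85 in the native arrays of SuvER-4146, SuvER-4936 and SuvER-5043 to 8.65, 7.47 and 9.29 after ADR. The lowest ADR array was above the highest native array by more than 2 log2 units. The mean change was 4.77 ± 0.29 (SD, n = 3; SE of the fit 0.80; adjusted p = 0.00877, limma), and all 3 cultures rose. Mmp13 was also the single gene called when the 6 arrays were fitted alone (adjusted p = 0.0328), but without SuvER-4936 its change of 4.68 did not pass (adjusted p = 0.189).

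Cd36, a receptor that takes up long-chain fatty acids and oxidized lipoproteins, went from 5.99, 6.85 and 5.63 to 9.80, 10.9 and 8.88 in the same order of cultures. Its change was 3.70 ± 0.41 (SD, n = 3; adjusted p = 0.00877, limma) and 3.53 without SuvER-4936 (adjusted p = 0.189). Lgals3, which encodes a galactoside-binding lectin made by macrophages and many other cells, went from 5.47, 5.05 and 5.46 to 9.87, 10.3 and 7.85. For both genes native and ADR arrays did not overlap. The Lgals3 change was 4.01 ± 1.47 (SD, n = 3; adjusted p = 7.67e-05, limma), and at 3.39 it was still called without SuvER-4936 (adjusted p = 0.0158).

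Lysozyme genes rose most on the mean. Lyz1 went from 7.14, 4.76 and 9.0 to 11.74, 14.82 and 13.98, a change of 6.54 ± 3.05 (SD, n = 3; adjusted p = 0.000234, limma) that was higher in 3 of 3 cultures. Without SuvER-4936, which rose by 10.06, the change was 4.79 (adjusted p = 0.0433). Lyz2 went from 7.79, 5.13 and 7.77 to 10.27, 13.82 and 12.74, with adjusted p = 0.00297, and was not called without SuvER-4936 (change 3.73, adjusted p = 0.352). Lyz1 and Lyz2 are near-identical neighbours that a probe set may not separate: 2 of the 3 Lyz1 probe sets rose by 6.13 and 6.56 on the mean, and the other, which was dim, by 0.486.

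Other called rises included 4 secreted signals, Cxcl2, Ccl3, Ccl9 and Csf2. The neutrophil-attracting chemokine Cxcl2 went from 3.77, 3.39 and 3.41 to 6.79, 10.71 and 6.52 (change 4.48, adjusted p = 0.00877). Ccl3 and Ccl9, chemokines that act through Ccr1, changed by 3.48 and 3.54, and Ccr1 itself by 3.40. In each of these genes SuvER-4936 moved furthest, and without it the changes were 3.07, 2.19, 2.20 and 2.66, none of them called; the 3 cultures rose in each. Csf2, the growth factor GM-CSF, changed by 2.42, 3.39 and 0.68 in the 3 cultures. Lcn2, a siderophore-binding protein of neutrophils and epithelia, changed by 1.42, 6.87 and 3.60.

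The remaining called rises were Anxa2, an annexin of the cell surface (3.71, 4.61 and 1.89 in SuvER-4146, SuvER-4936 and SuvER-5043), F9, coagulation factor IX (2.09, 3.95 and 1.31), Mir22hg, the host transcript of miR-22 (1.18, 4.29 and 1.56), the zinc finger gene Zfp599 (mean 1.49) and Fth1, the ferritin heavy chain (mean 0.88). Each was higher after ADR in 3 of 3 cultures, and none passed without SuvER-4936. Anxa2, F9, Fth1 and Mir22hg lay outside the rule for naming the largest changes and are named so that all called genes are listed. Other probe sets of Anxa2 and Ccr1 were dim and changed little, by 0.08 or less and by 0.32.

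**Figure D3:**
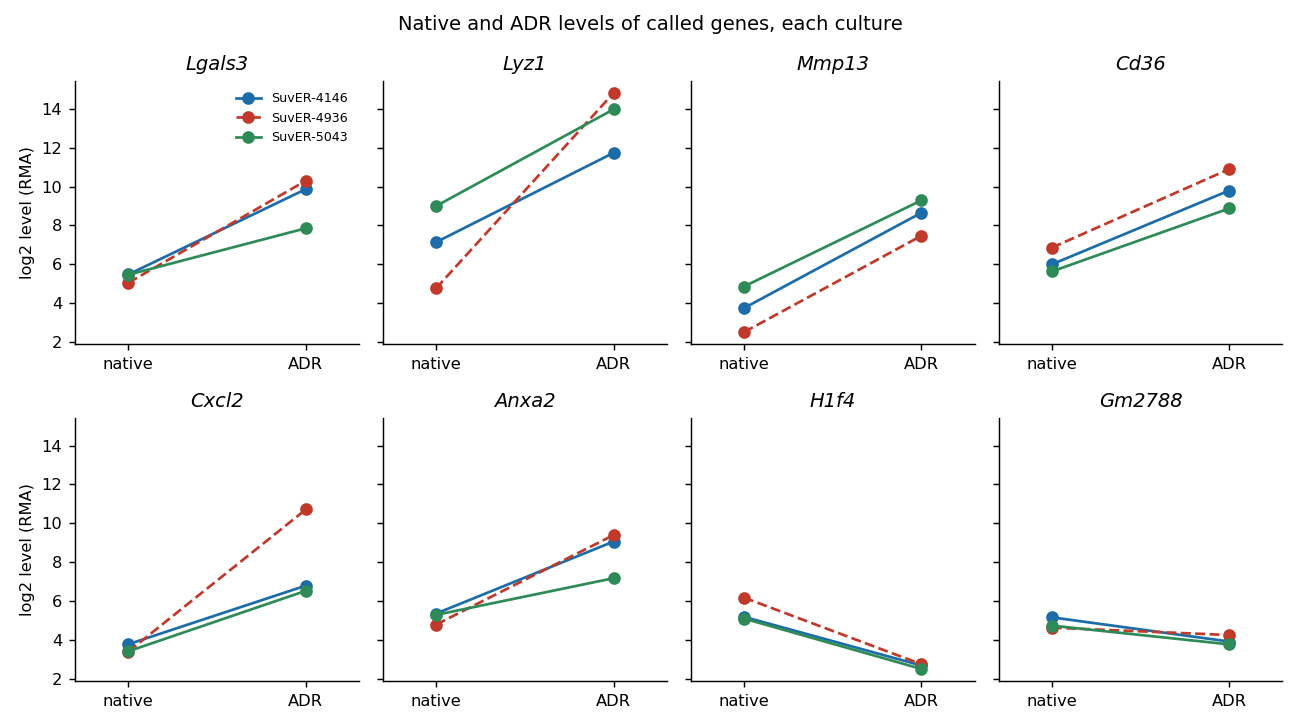
Log2 level (y axis) in native and ADR arrays (x axis) of 8 called genes, 1 line per culture, with SuvER-4936 dashed. Lines of the 6 rising genes go up in all 3 cultures, and those of H1f4 end between 2.50 and 2.74.

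H1f4, which encodes linker histone H1.4, was the gene with the smallest p in the whole comparison. It went from 5.18, 6.17 and 5.09 in the native arrays of SuvER-4146, SuvER-4936 and SuvER-5043 to 2.68, 2.74 and 2.50 after ADR. The 3 ADR arrays lay within 0.25 of each other and far below every native array. The change was -2.84 ± 0.51 (SD, n = 3; SE of the fit 0.31; adjusted p = 3.71e-05, limma), and it was -2.55 without SuvER-4936 (adjusted p = 0.0067). The mean level of H1f4 over all arrays of the study was 3.63, which removes it under a filter on genes of mean level under 5. Its 3 native arrays here lay above 5, and its 3 ADR arrays lay below the array medians of 4.34 to 4.37. The part of this low level in the closeness of the 3 ADR arrays was not tested. Histone genes of this family are so alike that the H1f4 probe set may read relatives. Replication-dependent histone genes are transcribed in S phase. H3c4, a core histone H3 gene, changed by -1.25, -1.61 and -1.14 and was not called (adjusted p = 0.112).

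The promoters of H1f4, Mmp13 and Lgals3 are shown because Mmp13 and Lgals3 rose and H1f4 fell with no overlap between native and ADR arrays. Each sequence runs 5′ to 3′ on the gene's strand from 250 bases before the start site over 50 bases of the transcript, from RefSeq on build GRCm38.p6. For H1f4 (chr13:23622509-23622808, minus strand), capitals mark AAACACA, known as the H1 box, and CCAAT.
H1f4: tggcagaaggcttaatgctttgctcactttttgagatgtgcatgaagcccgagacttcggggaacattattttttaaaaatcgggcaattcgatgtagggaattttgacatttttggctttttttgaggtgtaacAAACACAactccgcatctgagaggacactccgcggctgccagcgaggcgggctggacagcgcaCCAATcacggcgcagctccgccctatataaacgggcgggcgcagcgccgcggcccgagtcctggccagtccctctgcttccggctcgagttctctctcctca
For Mmp13 (chr9:7272264-7272563, plus strand), capitals mark TGACTCA, a match to the AP-1 element TGANTCA.
Mmp13: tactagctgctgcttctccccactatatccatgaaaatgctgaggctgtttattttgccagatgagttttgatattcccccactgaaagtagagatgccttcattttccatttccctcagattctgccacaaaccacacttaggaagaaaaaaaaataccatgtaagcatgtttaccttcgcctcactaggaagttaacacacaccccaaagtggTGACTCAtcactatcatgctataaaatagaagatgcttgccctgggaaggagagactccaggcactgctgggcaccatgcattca
For Lgals3 (chr14:47373610-47373909, plus strand), capitals mark ATTGG, which is CCAAT on the other strand.
Lgals3: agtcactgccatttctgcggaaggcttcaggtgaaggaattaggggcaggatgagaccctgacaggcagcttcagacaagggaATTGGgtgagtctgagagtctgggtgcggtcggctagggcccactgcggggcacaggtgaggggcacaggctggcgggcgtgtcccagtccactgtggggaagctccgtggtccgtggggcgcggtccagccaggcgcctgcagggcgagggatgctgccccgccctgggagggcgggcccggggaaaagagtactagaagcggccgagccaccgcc

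Those letters were searched on both strands in 27025 promoters of 300 bases, with overlaps between motifs allowed. CCAAT was in 37.9% of all promoters, in 4 of the 15 called rising genes with a promoter and in 3 of the 5 falling ones. TTTGAA, an element of cell-cycle genes, was in 18.1% of all, in 4 of 15 and in 0 of 5. CACGTG, the E-box that Myc binds, was in 7.24% of all, in 0 of 15 and in 0 of 5. TGANTCA was in 7.93% of all and in 3 of the 15 (Anxa2, Ccl9 and Mmp13), and AAACACA in 7.14% of all and in 1 of the 5, H1f4. TGANTCA and AAACACA were added after the changes were known. A match is a string of letters and does not show a bound site.

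The other 6 falling genes changed less. Gm2788, a predicted gene, went from 5.16, 4.63 and 4.73 to 3.91, 4.24 and 3.76, with a change of -0.87 (adjusted p = 0.00883, limma) and of -1.11 without SuvER-4936 (adjusted p = 0.0067). Usp48, a deubiquitinase, went from 8.13, 8.66 and 8.27 to 7.69, 7.54 and 7.67, with a change of -0.72 (adjusted p = 0.00479). Native and ADR arrays did not overlap for either gene, and all 3 cultures fell. Gm2788 was dim, with a mean level of 4.3 over all arrays of the study, and a filter on genes of mean level under 5 removes it. Its 3 ADR arrays lay below the array medians of 4.34 to 4.37. Usp48 was not called without SuvER-4936 (-0.52, adjusted p = 0.389, limma). The Usp48 values rest on its brightest probe set. A second bright probe set of Usp48 changed by -0.56, -0.95 and 0.21 in SuvER-4146, SuvER-4936 and SuvER-5043, and a dimmer one by -0.20 on the mean.

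Mib2, an E3 ubiquitin ligase of Notch signalling, changed by -1.25 (adjusted p = 0.0229) and Mpnd by -0.92 (adjusted p = 0.0196). Accs changed by -0.75 (adjusted p = 0.0475) and Ptpn2, a phosphatase that dampens JAK-STAT signalling, by -0.74 (adjusted p = 0.036). Each was lower in 3 of 3 cultures and none was called without SuvER-4936. The Ptpn2 value rests on its brightest probe set. Its second bright probe set changed by -0.068, both dim ones were higher, and the mean of its probe sets changed by 0.14. Of the genes next in line by p, Cars, a cysteinyl-tRNA synthetase (-1.12), Ldb3 (-0.94) and Rasgrp2, an activator of Rap1 (-1.78), were lower in 3 of 3 cultures with adjusted p = 0.0599 each.

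Beyond the called genes, those at least 1 log2 unit higher in both SuvER-4146 and SuvER-5043 included genes known from phagocytes and from the extracellular matrix; the names in this paragraph were picked after their values were seen. Mmp12, the macrophage elastase, was 1.76, 3.76 and 4.28 higher in SuvER-4146, SuvER-4936 and SuvER-5043, and Stfa3, a cysteine protease inhibitor of myeloid cells, 1.98, 5.31 and 4.54. Acod1, which makes itaconate in activated macrophages, was 1.5, 5.18 and 2.73 higher, and Fcer1g, a signalling chain of Fc receptors, 1.41, 1.80 and 2.52. Col1a2, a collagen chain, was 3.60, 5.30 and 2.16 higher, Bgn (biglycan) 3.88, 4.81 and 2.06, and Cpe (carboxypeptidase E) 4.18, 4.93 and 2.02. None of these 7 passed the test, with adjusted p from 0.0901 to 0.133.

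The mean levels of a macrophage and a fibroblast marker list were higher after ADR in each of the 3 cultures. Both cell types could be present, since the cells came from lymph nodes and grew on NIH 3T3 fibroblasts. Of 26 measured genes of a macrophage and monocyte list, 2 were called higher (Lyz1 and Lyz2) and 0 lower, against 0.0879% and 0.0385% of all genes. A probe set may not separate Lyz1 from Lyz2, so these calls may share 1 signal. In all 3 cultures 14 were higher, against 19% of all genes, and 16 were higher in both SuvER-4146 and SuvER-5043, against 28.9%. The median change was 1.06 (0.67 without SuvER-4936), against 0.01 over all genes. Their mean level went from 5.90 to 6.62 in SuvER-4146, from 5.21 to 7.67 in SuvER-4936 and from 5.66 to 6.67 in SuvER-5043. Itgam, an integrin of myeloid cells, was 1.5, 3.98 and 1.42 higher, while the tissue macrophage genes Mrc1, C1qa, C1qb, C1qc, Clec7a and Marco were below a log2 level of 5 in all 6 arrays.

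Of 33 measured fibroblast genes, 0 were called, and the median change was 0.71 (0.32 without SuvER-4936). In all 3 cultures 17 of these genes were higher and 1 was lower, against 19% and 17.2% of all genes. Their mean level went from 4.61 to 5.53, from 4.26 to 6.0 and from 4.36 to 4.87. Timp2, a metalloprotease inhibitor, was 3.02, 3.32 and 1.51 higher, whereas 15 of the 33 genes, Col1a1, Pdgfra and Pdgfrb among them, were below 5 in all 6 arrays. In the neutrophil list, 1 of 14 genes was called (Lcn2), against 0.126% of all genes, and 10 were below 5 throughout. S100a8, a calcium-binding protein of neutrophils and monocytes, was 0.57, 4.39 and 3.78 higher. In WT ADR arrays the mean level was 5.10 to 9.19 for fibroblast genes and 6.83 to 8.89 for macrophage and monocyte genes. In a bulk sample, more cells of a type and more RNA per cell cannot be told apart, and the part of these cells in the rises of Mmp13, Cd36, Lgals3, Lyz1 and the chemokines was not tested.

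T cell, NK cell, erythroid and endothelial lists had median changes of 0.15, -0.00292, -0.04 and -0.03, with 0 genes called in each. Most of their genes were dim, with 10 of 18 T cell genes and 10 of 11 NK cell genes below 5 in all 6 arrays. In the T cell list, 4 of 18 genes were higher and 4 lower in all 3 cultures, against 19% and 17.2% of all genes. Cd3e was lower in 3 of 3 cultures (mean -0.59, adjusted p = 0.0992, limma). Cd5 was higher in 3 of 3 cultures (0.80, 4.38 and 0.36), and Cd3g changed by 2.34, -0.07 and 0.30.

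Among 38 measured secretory factors of senescent cells, 4 were called higher (Mmp13, Cxcl2, Ccl3 and Csf2) and 0 lower, against 0.0879% and 0.0385% of all genes. The median change was 0.75 (0.385 without SuvER-4936, when 0 were called). In all 3 cultures 21 were higher and 3 lower, against 19% and 17.2% of all genes. Il6, a cytokine at the core of that secretory state, was 1.62, 0.61 and 1.79 higher, and Tnf 0.86, 0.77 and 0.89; neither passed the test (adjusted p = 0.352 and 0.275). Cxcl10 was 1.46, 1.53 and 0.27 higher. Il1a was 0.48, 1.07 and 0.22 higher. Not all members leaned the same way: Vegfa and Cxcl12 were lower in 3 of 3 cultures, by means of -0.58 and -0.32.

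Interferon-stimulated genes had a median change of 0.38 over 31 genes (0.315 without SuvER-4936), with 0 called. Of these genes 17 were higher and 0 lower in all 3 cultures, against 19% and 17.2% of all genes. The shift was uneven, with medians of 0.715 in SuvER-4146, 0.59 in SuvER-4936 and 0.15 in SuvER-5043. Gbp2, a guanylate-binding protein, was 2.53, 1.68 and 0.32 higher, and Irf9, a subunit of the interferon-activated factor ISGF3, 0.82, 2.43 and 0.79. Lysosomal genes had a median change of 0.32 (0.155 without SuvER-4936), with 16 of 30 higher in all 3 cultures against 19% of all genes. Lamp1, a protein of the lysosomal membrane, was 0.40, 1.38 and 0.66 higher (adjusted p = 0.0785, limma). NF-kB genes had a median of 0.17 and 0.02 without SuvER-4936.

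Genes of cell division were somewhat lower, and none passed the test. Of 29 measured mitosis genes, 22 were lower and 0 higher in all 3 cultures, against 17.2% of all genes lower, with a median change of -0.52 and of -0.31 without SuvER-4936. Mki67, the proliferation marker Ki-67, went from 10.8, 11.46 and 10.93 to 9.94, 9.81 and 10.21 (change -1.08, adjusted p = 0.40). The ADR arrays all lay below the native ones yet kept a high level. Bub1, a spindle checkpoint kinase, changed by -0.30, -2.004 and -0.55, and Birc5 (survivin) by -0.05, -0.03 and -0.01.

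Replication genes had a median change of -0.22 (16 of 33 lower in all 3 cultures) and DNA repair genes of -0.52 (9 of 15 lower), against 17.2% of all genes lower. Without SuvER-4936 the medians were -0.188 and -0.212. Pold1, the catalytic subunit of DNA polymerase delta, was lower by a mean of -0.94 and Fanca, of the Fanconi pathway, by -0.71. Both were lower in 3 of 3 cultures, with adjusted p = 0.251 and 0.136.

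Targets of p53 leaned higher in SuvER-4146 and SuvER-5043 (medians 0.33 and 0.173) and lower in SuvER-4936 (-0.275), and none was called. In both SuvER-4146 and SuvER-5043, 18 of 31 measured genes were higher and 3 lower, against 28.9% and 27.4% of all genes. The median change was 0.15 over the 3 cultures and 0.264 without SuvER-4936. Cdkn1a, the cell-cycle inhibitor p21, went from 9.54, 11.12 and 11.22 to 10.64, 9.59 and 11.09. It was higher in SuvER-4146 by 1.10 and lower in SuvER-4936 and SuvER-5043, with a mean of -0.19 that turns to 0.49 without SuvER-4936. Mdm2, which degrades p53, changed by 0.68, -0.43 and -0.16. Phlda3, a p53-induced repressor of Akt, changed by 1.46, -0.49 and 0.43. Ddb2, a nucleotide excision repair gene, was lower in 3 of 3 cultures, at -0.71, -0.81 and -1.12.

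Of 15 measured genes of arrest and nuclear lamina, 0 were called. Cdkn2a, the locus of p16 and p19Arf, went from 6.57, 2.70 and 4.66 to 7.22, 11.76 and 4.19; the change of 9.07 in SuvER-4936 stood beside 0.65 and -0.47 in the other 2 cultures. Cdkn1b, the inhibitor p27, was lower in 3 of 3 cultures (mean -0.91, adjusted p = 0.189). Lmnb1, the lamin that is lost in senescence, changed by 0.13, 0.01 and -0.25. Myc changed by -0.12, -0.90 and 0.14. Bcl2 changed by -0.54, -3.68 and -0.20.

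Cholesterol synthesis genes were lower in value, most in SuvER-4146, and none was called. Of 21 measured cholesterol synthesis genes, 17 were lower and 0 higher in both SuvER-4146 and SuvER-5043, against 27.4% of all genes lower, and 13 were lower in all 3 cultures. The median change was -0.70 (-0.91 without SuvER-4936), and the medians per culture were -1.33, -0.40 and -0.28. Pmvk, phosphomevalonate kinase, went from 8.43, 8.31 and 8.32 to 7.14, 7.004 and 7.57 (adjusted p = 0.0599), and Srebf2, the master regulator of the pathway, from 8.65, 8.68 and 8.09 to 7.65, 7.63 and 7.71. Both genes had every ADR array below every native array.

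Unfolded protein and integrated stress genes had no common direction (median 0.04 over 28 genes, 0 called). In all 3 cultures 9 were higher and 8 lower, against 19% and 17.2% of all genes. Trib3, a pseudokinase and Atf4 target, went from 8.09, 8.18 and 8.24 to 6.41, 6.65 and 6.04 (change -1.80, adjusted p = 0.193). Chac1, which degrades glutathione, changed by -1.64, -0.73 and -2.07, and Asns, asparagine synthetase, by -0.91, -1.96 and -0.75. Atf4 itself changed by -0.80, -0.33 and -0.53. The chaperone gene Calr, calreticulin, was 0.46, 0.27 and 0.52 higher and Sdf2l1 0.43, 0.63 and 0.64.

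Cth, Pck2 and Gpt2, enzymes of amino acid and mitochondrial metabolism that lie outside the lists and were picked after their values were seen, changed by -1.65, -1.12 and -1.32 on the mean and were lower in 3 of 3 cultures. Glycolysis genes had a median of -0.20 and oxidative phosphorylation genes of 0.01 (-0.191 and -0.06 without SuvER-4936). Genes of Myc targets and ribosome biogenesis had a median of 0.245 (0.142 without it), with 17 of 35 higher in all 3 cultures against 19% of all genes. Ribosomal proteins had a median of -0.03 (0.007 without SuvER-4936). No gene of these 4 lists was called.

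Chromatin and B-cell lists held no called gene. The list of H3K9 methylation and heterochromatin had a median of -0.06 over 28 genes, with 5 higher and 6 lower in all 3 cultures, against 19% and 17.2% of all genes. Within it Ehmt1 and Ehmt2, the pair of enzymes that dimethylate H3K9, changed by -0.46 and -0.45 (adjusted p = 0.0967 and 0.10) and were lower in 3 of 3 cultures. Polycomb genes had a median of -0.09 (0.068 without SuvER-4936). The B-cell identity list had medians of -0.41, 0.304 and 0.122 in SuvER-4146, SuvER-4936 and SuvER-5043, 0.03 over all and -0.18 without SuvER-4936. Of its 24 measured genes, 6 were higher and 4 lower in all 3 cultures, against 19% and 17.2% of all genes. Cd22, an inhibitory co-receptor of B cells, was lower in 3 of 3 cultures (-2.10, -0.62 and -0.79), and Pax5 changed by -0.40 on the mean. Cd52, of the same list, was higher in 3 of 3 cultures (0.14, 1.59 and 0.67). Several other lists moved when SuvER-4936 was left out, each with 0 genes called. MHC class I had a median of -0.16 that turned to 0.185, and MHC class II one of 0.37 that went to 0.146. Early response factors went from -0.00823 to 0.161, precursor B cell genes from -0.23 to -0.142, the Bcl2 family from 0.02 to 0.057, autophagy from 0.03 to 0.066 and arrest and nuclear lamina from -0.03 to -0.00296. Wnt and stem cell genes and germinal centre and plasma cell genes had medians of 0.15 each.

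**Figure D4:**
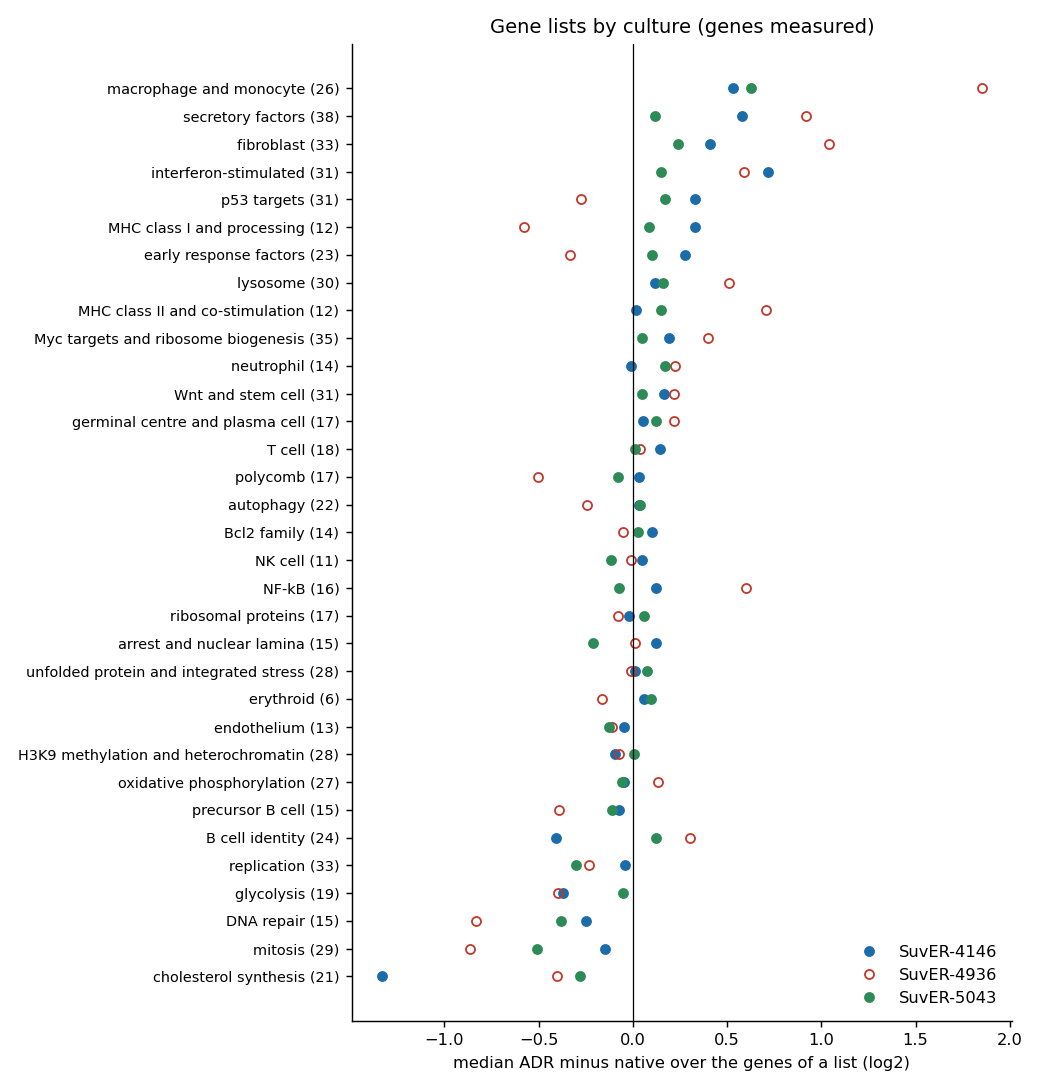
Median ADR minus native (x axis, log2 units) over the measured genes of 33 lists (y axis, number of genes in brackets), 1 point per culture, with open points for SuvER-4936. Macrophage and monocyte genes lie to the right of 0 in all 3 cultures, cholesterol synthesis and mitosis genes to the left, and the SuvER-4936 points are often the furthest from 0.

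Whether the response of Suv39h1ER cultures differed from that of Suv39h1- lymphomas was tested as a difference of the treatment terms. It was called for 2 genes (0.011%), Lgals3 and H1f4. After ADR, Lgals3 changed by -1.25 to 0.64 in the 5 Suv39h1- lymphomas, with a mean of -0.13, and by 2.39 to 5.25 in the Suv39h1ER cultures. The native levels differed before treatment: Lgals3 was at 5.05 to 5.47 in native Suv39h1ER arrays and at 7.13 to 11.95 in native Suv39h1- arrays. After ADR the groups overlapped, at 7.85 to 10.3 and 7.37 to 11.75. The difference in change was 4.14 (SE 0.59, adjusted p = 0.00538, limma), and 3.52 without SuvER-4936 (adjusted p = 0.236). H1f4 changed by -1.10 to -0.21 in Suv39h1- lymphomas, and the difference was -2.33 (adjusted p = 0.031; -2.04 and 0.621 without SuvER-4936). Native H1f4 was at 5.09 to 6.17 in Suv39h1ER and at 3.35 to 4.13 in Suv39h1- arrays, and ADR levels at 2.50 to 2.74 and 2.87 to 3.36 lay below the array medians in both. The part of the native level in the H1f4 and Lgals3 differences was not tested. The macrophage and monocyte list had a median change of 1.06 in Suv39h1ER cultures and 0.47 in Suv39h1- lymphomas, from mean native levels of 5.21 to 5.90 and 5.25 to 8.36. Its part in the Lgals3 difference was not tested. The count was 0 without SuvER-4936, 8 without SuvER-4146, 1 without SuvER-5043, and 1 without any single one of Suv39h1- lymphomas 7890, 9250, 1032 and 4936. Within the Suv39h1- lymphomas themselves 2 genes (0.011%) were called after ADR.

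In WT lymphomas, 5489 genes (30.2%) were called, and the difference between Suv39h1ER and WT responses was called for 15 genes (0.0824%). No gene was called for this difference without SuvER-4936 or without SuvER-4146; without SuvER-4936, 1512 genes had an unadjusted p under 0.05 against 2552 with it. The count was 51 without SuvER-5043 and 63 without the WT lymphoma 5043. The 18S control was 7.2 to 8.59 in WT arrays and 8.26 to 10.06 in the 6 Suv39h1ER arrays, and its part in these differences was not tested. Lyz1 changed by 0.35 to 4.32 in the 14 WT lymphomas, and the difference was 4.81 (SE 0.92, adjusted p = 0.0355; 3.05 and 0.364 without SuvER-4936). Native Lyz1 was at 4.76 to 9.0 in Suv39h1ER and at 7.03 to 12.77 (median 11.71) in WT arrays, and the ADR levels overlapped, at 11.74 to 14.82 and 11.35 to 13.83. H1f4 changed by -1.94 to -0.21 in WT, from native levels of 3.49 to 5.78 (median 3.88) against 5.09 to 6.17, with a difference of -2.13 (adjusted p = 0.0144; -1.84 and 0.299 without SuvER-4936). The part of the native levels in both differences was not tested.

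Most other named differences from WT lay in genes with small or opposite changes in Suv39h1ER cultures. Med14, a Mediator subunit, changed by -0.94 in WT and 0.34 in Suv39h1ER cultures, and Pradc1 by -1.16 and 0.07. Ahnak2 changed by 2.80 in WT and 0.05 in Suv39h1ER cultures. Tln1, the integrin-linking protein talin, and Jdp2, an AP-1 family repressor, were higher in WT by 0.66 and 1.08, against -0.59 and -0.99 in Suv39h1ER cultures. Dync1h1, the dynein heavy chain, changed by 0.74 and -0.42. Zfp599 changed by 1.49 in Suv39h1ER cultures against -0.27 in WT. Lpcat1, a phospholipid-remodelling enzyme, changed by 0.44 in Suv39h1ER cultures, 0.977 above WT.

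All 29 mitosis genes were called lower in WT, where 2564 of all 18193 genes were called lower. Their median change was -2.09 in WT, against -0.52 in Suv39h1ER cultures and -0.62 in Suv39h1- lymphomas. For Mki67 the WT change was -2.31 and the difference of 1.23 (SE 0.57) was not called (adjusted p = 0.329). For Lmnb1 it was -1.62, with a difference of 1.59 (SE 0.46, adjusted p = 0.123). For Cdkn1a it was 1.11, with a difference of -1.30 (SE 0.48, adjusted p = 0.21). These misses do not show that the responses were alike.

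**Figure D5:**
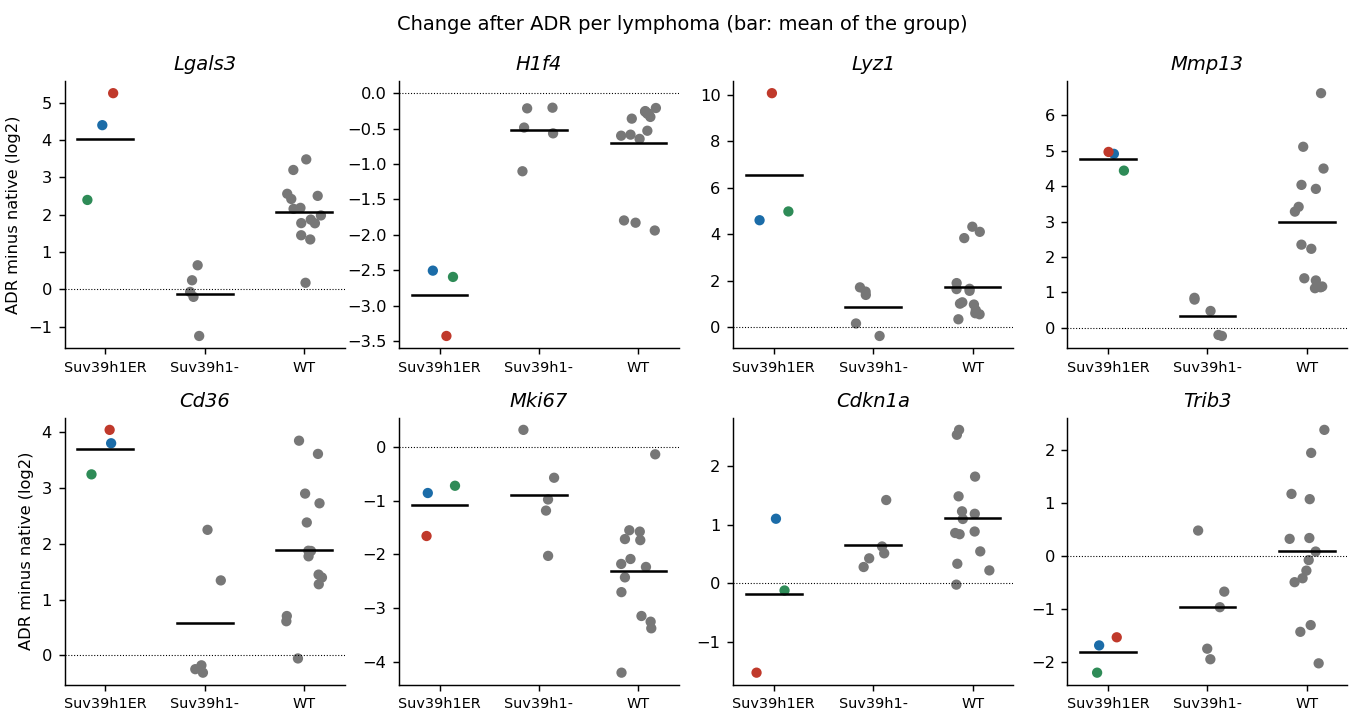
ADR minus native (y axis, log2 units) of 8 genes in each of 3 Suv39h1ER cultures (blue SuvER-4146, red SuvER-4936, green SuvER-5043), 5 Suv39h1- and 14 WT lymphomas (grey), with a bar at each group's mean. H1f4 points of the Suv39h1ER cultures, from -3.43 to -2.51, lie below the others, and Lgals3 points lie above those of the Suv39h1- lymphomas; both genes also differed in native level between these groups.

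The same cultures treated with ADR and 4OHT share their native arrays with this comparison, so the values are only set side by side. The labels give 5 days for ADR alone but no time for ADR with 4OHT. The treatments may therefore differ in time as well as in 4OHT. The SuvER-4146 array with 4OHT stood apart from its culture, and the SuvER-4936 array with ADR alone stood apart from that culture's native and 4OHT arrays. Values are therefore given per culture in the order SuvER-4146, SuvER-4936 and SuvER-5043. Lgals3 changed by 1.86, 2.65 and 0.173 with 4OHT, against 4.4, 5.25 and 2.39 without it. Anxa2 changed by 0.96, 1.80 and 0.497 with 4OHT, against 3.71, 4.61 and 1.89. For both genes the change with 4OHT was the smaller one in each culture. The mean level of the fibroblast list was also lower with 4OHT, at 4.66, 5.12 and 4.62 against 5.53, 6.0 and 4.87. That of the macrophage and monocyte list was 6.93, 6.66 and 6.97 with 4OHT, against 6.62, 7.67 and 6.67. The part of these cells or of the fusion in the Lgals3 and Anxa2 values was not tested.

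Mmp13 changed by 5.94, 7.86 and 4.41 with 4OHT, against 4.91, 4.97 and 4.44 without it. Lyz1 changed by 7.3, 8.45 and 5.07 with 4OHT, against 4.6, 10.1 and 4.98. H1f4 changed by -2.95, -3.56 and -2.58, against -2.51, -3.43 and -2.60. Mki67 changed by -0.391, -2.12 and -2.25, against -0.86, -1.66 and -0.72.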

How the data were processed

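RNA was hybridised to Affymetrix arrays with the one-cycle protocol, per the labels. The deposited values are log2 levels that the authors made with RMA in oligo (R 3.5.0), per the submitters' processing notes; the order of steps and the genome build are not given in the sources used here. Of 45101 probe sets, 34958 had 1 gene symbol in the platform annotation (updated through Entrez identifiers), 932 had several and 9211 none; AFFX control probe sets were left out, and the brightest probe set stood for each of 18193 genes. limma 3.58.1 (R 4.3.3) fitted all 47 arrays with 22 cultures as fixed blocks and 4 treatment terms, leaving 21 residual degrees of freedom per gene; p-values were two-sided and Benjamini-Hochberg adjusted. Pairs rest on culture names: deviations of same-named native and ADR arrays from their group means correlated at -0.11, -0.16 and 0.23 in the 3 Suv39h1ER cultures. P-values rest on a spread between cultures that is pooled over all 47 arrays, WT and Suv39h1- lymphomas included. They do not measure the spread among the 3 Suv39h1ER cultures alone, which the SD with n = 3 gives.

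Named genes were the largest called changes of 1 sign in all 3 cultures, filled up to 10 per direction by p, the 3 genes of smallest p in each list, and 7 fixed genes; for differences, the 5 largest called per direction. H3c4, Itgam, Birc5, Phlda3, Ddb2, Chac1, Calr, Sdf2l1, Il6, Tnf, Cxcl10, Il1a, Vegfa, Cxcl12 and the genes said to be picked lie outside that rule and were chosen after their values were seen. Lists (33, with 721 of 788 genes measured) were described by counts and medians. Members and lists were chosen with earlier results of these data known. Motifs were counted in RefSeq promoters. Alternatives changed the block, dim-gene filter, probe set rule, scaling, moderation, array weights, and arrays included. Suv39h1 itself was not analysed here. Figures used matplotlib 3.10.9.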

Additional observations from a re-analysis of the deposited data

Results flagged for a closer look

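The median log2 level of the Suv39h1- ADR array of lymphoma 1032, 4.07, stood apart from the other 4 of its group; about 1 group in 20 shows such a gap by chance.

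Responses to ADR differed between genotypes by the test of the difference (limma). Against Suv39h1- lymphomas, the Suv39h1ER response was higher by 4.14 for Lgals3 and differed by -2.33 for H1f4. Against WT lymphomas it was higher by 4.81 for Lyz1, 1.76 for Zfp599, 1.28 for Med14, 1.23 for Pradc1 and 0.977 for Lpcat1, and differed by -2.75 for Ahnak2, -2.13 for H1f4, -2.07 for Jdp2, -1.25 for Tln1 and -1.16 for Dync1h1. Without SuvER-4936, 0 genes passed either test; 656 had an unadjusted p under 0.05 against Suv39h1- and 1512 against WT. For Lgals3, H1f4 and Lyz1 the native levels already differed between genotypes: the medians were 5.46 in Suv39h1ER and 8.72 in Suv39h1- arrays for Lgals3, 5.18 and 3.57 for H1f4, and 7.14 in Suv39h1ER and 11.71 in WT arrays for Lyz1.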

How the results depend on the processing

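Of 15 alternatives for the ADR against native count of 23 genes, those that moved it by more than 1.5 times were the fit with no replicate block (2 genes), the 9 Suv39h1ER arrays alone (2) or the 6 alone (1) with a replicate block, quantile normalization (35, 17 higher and 18 lower), array weights (57, 27 and 30) and every probe set on its own (170, 53 and 117). A random replicate block gave 20 (10 and 10), of which 8 were among the 23. Leaving out 1 culture gave 4 to 109 genes: 44 without SuvER-4146, 4 without SuvER-4936 and 109 without SuvER-5043. The pairing rests on culture names; same-named arrays did not deviate together in all 3 cultures. The 2 genes of the difference from Suv39h1- became 0 with no replicate block, 1 without genes of mean level under 5, 1 without the ADR with 4OHT arrays (an alternative chosen after seeing the data) and 0 to 8 leaving out 1 lymphoma. The 15 genes of the difference from WT became 4 with no replicate block, 56 with a random block, 47 without dim genes, 5 with the mean of all probe sets, 22 with quantile normalization (8 higher and 14 lower), 543 with array weights and 0 to 63 leaving out 1 lymphoma. Directions turned in genes that were not called, and in Ptpn2, at 0.14 with the mean of all probe sets. Cdkn1a was 0.36 with array weights and -0.83 to 0.49 leaving out 1 culture. Mdm2 was -0.17 with the mean of all probe sets, -0.024 with quantile normalization and -0.30 to 0.26 leaving out 1 culture. That range was -0.53 to 0.034 for Il2rb, -0.51 to 0.013 for Myc, -0.12 to 0.073 for Lmnb1, -0.013 to 0.12 for Pradc1 and -0.052 to 0.19 for Ahnak2. The cause was not tested. The number of cultures, 3, limits the precision.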
